A study of Mus musculus with 8 samples.

Results

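Replication-dependent histone genes were followed in CT26, a mouse colorectal carcinoma cell line, with and without mLJZD, a drug whose abbreviation the labels leave unexpanded. They were chosen by symbol, as the protein-coding genes of the Hist1h, Hist2h, Hist3h and Hist4h series, and matched to the Ensembl identifiers of the count table. This gave 67 genes among 56953 identifiers. Of these, 42 had at least 10 counts summed over the 8 libraries and are described here, 15 had between 1 and 9 counts, and 10 had no count. The 67 genes comprise 6 linker histones (H1), 18 H2A, 18 H2B, 12 H3 and 13 H4 genes. In the annotation used for names, 54 of them lie on chromosome 13, 10 on chromosome 3, 2 on chromosome 11 and 1 on chromosome 6.

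RNA libraries of 4 groups were compared, each with 2 libraries. CT26 cells grown as transplanted tumours came from hosts given normal saline or mLJZD. Cultured CT26 cells, kept in RPMI-1640 medium, received for 48 hours either 10% control serum or 10% serum containing mLJZD. All groups carry the same line, and the labels give neither the strain or age of the hosts, nor the dose or duration in tumours. Nor do they say if the pair of libraries in a group stems from different animals or dishes, and the p-values below then reflect only library-to-library spread, possibly technical. Tumour libraries contain host RNA as well as CT26 RNA, and in bulk RNA fewer cells of a type cannot be told apart from less RNA per cell.

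Histones are the proteins around which DNA is wound. H2A, H2B, H3 and H4 form the core of the nucleosome, and H1 binds the linker DNA between nucleosomes. The replication-dependent genes lie in clusters of similar copies, mostly lack introns, and supply histones during S phase. Their usual mRNA is the only metazoan mRNA class without a poly(A) tail. It ends shortly after a conserved stem-loop, which is bound by the stem-loop binding protein Slbp and cut with the help of the U7 small nuclear RNA. Some copies can also be made as longer, polyadenylated mRNA, a form known from differentiated cells and from cells outside S phase. Library preparation decides which form is seen, and whether poly(A) selection or rRNA depletion was used is not given in the sources used here.

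The copies were divided by their annotated 3′ end. A copy was called long where a coding transcript in GENCODE M21 (build GRCm38) has over 300 bases after the stop codon, and short otherwise. This put 22 of the 67 genes in the long class and 45 in the short class, and 20 and 22 of those had the minimum of 10 counts. Among these 42, the long copies had a median of 851.5 annotated bases after the stop codon (376 to 4931) and the short copies 74.5 (0 to 200). For 7 of the 22 short copies the annotation ends at the stop codon or 1 base beyond it, so that their true end is not known from it. The class is a property of the annotation and does not show which form the reads came from.

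The stem-loop was searched on the sense strand after the stop codon as a pattern of 16 letters: GG, 3 bases of any kind, TTTT, 1 base of any kind, AG, 2 bases of any kind and CC. They were found in 30 of the 42 genes, 17 of 20 long and 13 of 22 short copies. A long copy can therefore hold both the stem-loop, close to the stop codon, and a poly(A) signal (AATAAA or ATTAAA) near its far end. Such a signal lay within the last 50 annotated bases in 9 of 20 long and 3 of 22 short copies. The stem-loop sites of the 4 genes with the motif on which most of the results below turn are printed 5′ to 3′ as DNA, with the 16 letters of the motif in capitals.
Hist1h1c: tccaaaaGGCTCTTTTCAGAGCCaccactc
Hist1h4i: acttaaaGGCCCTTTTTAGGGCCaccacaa
Hist1h2ae: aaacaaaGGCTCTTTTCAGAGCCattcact
Hist1h2be: aaccaaaGGCTCTTTTCAGAGCCacccaac
The motif begins at base 25, 31, 33 and 30 after the stop codon in these genes, in the order printed.

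The annotated far ends of 4 long copies are printed next, with the poly(A) signal in capitals, because they mark where a polyadenylated mRNA of the gene would stop.
Hist1h1c: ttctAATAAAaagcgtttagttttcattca
Hist2h2be: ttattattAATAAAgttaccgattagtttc
Hist1h4i: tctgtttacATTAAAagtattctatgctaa
Hist1h2be: tgtgttccttATTAAAgcattcctgattga
These ends lie 880, 2192, 376 and 1906 bases after the stop codon, in that order. Hist2h2be has no match to the stem-loop letters in its annotated end. Hist1h2bc has none either in its annotated coding transcript, which is spliced after the stop codon across an intron of 7554 bases; the intron was not searched. Neither absence says anything about the binding of Slbp.

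Copies that are nearly identical can share reads, and how reads mapping to several places were counted is not given in the sources used here. For each gene the share of its 50-base windows found unchanged in the transcripts of another gene was computed. The median was 22.1% for the 20 long copies and 56.0% for the 22 short ones. Among the most counted genes it was 0% for Hist2h2be, 8.54% for Hist1h1c, 28.9% for Hist1h4i, 30.6% for Hist1h2bc and 43.2% for Hist1h2ae. It reached 100% for Hist1h2bq, an H2B gene whose counts cannot be separated from those of its copy Hist1h2br. Another gene overlaps 12 of the 42, and since the strand setting is not given either, their counts are uncertain. Hist1h1e and Hist1h2be overlap each other on the same strand, Hist3h2a overlaps Trim17 on the same strand, and Hist1h2ae overlaps Gm44394 on the opposite strand.

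Counts were concentrated in a few long copies. All 67 genes together had 5699 counts, of which the long copies held 86.0%. Hist1h1c, Hist1h2bc and Hist2h2be alone held 69.0%. Hist1h1c, the gene of the linker histone H1.2 (newer symbol H1f2), had 2176 counts over the 8 libraries. Hist2h2be (H2bc21) had 956 and Hist1h2bc (H2bc4) had 798; both encode H2B. Next came Hist1h4i, an H4 gene, with 254 counts, and Hist1h2ae, an H2A gene and the most counted short copy, with 121. The median over members with at least 10 counts was 43 counts for long and 25 for short copies. Long copies also have longer transcripts, which collect more fragments at the same number of molecules. The median share of windows found in another gene was 22.1% for the 20 long and 56.0% for the 22 short copies. Among genes with no count, it was 100% for Hist2h2aa1, Hist2h2aa2, Hist2h2bb, Hist2h3b and Hist2h3c1. Hist1h2br had 99.8% and Hist1h2ap 93.1%. The others were lower, with 38.2% for Hist1h2ba, 23.8% for Hist1h2aa and 0% for Hist1h1t. How far reads with several matches lowered any count was not tested. Levels were also scaled by the length of the coding transcript with the most annotated bases after the stop codon. Hist1h1c then stood at 11.4 CPM per kilobase in saline tumours (CPM being counts scaled to the library total). Hist1h2bc stood at 5.87, Hist2h2be at 4.21, Hist1h4i at 1.74 and Hist1h2ae at 0.612. In control cultures the order differed, with Hist1h1c at 3.53 CPM per kilobase, Hist1h4i at 2.73, Hist1h2ae at 2.12, Hist1h2bc at 1.28 and Hist2h2be at 0.727. Both orders hold for this length only. Reads from a form ending at the stem-loop would call for a shorter length, and which form was read is not known.

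**Figure D1:**
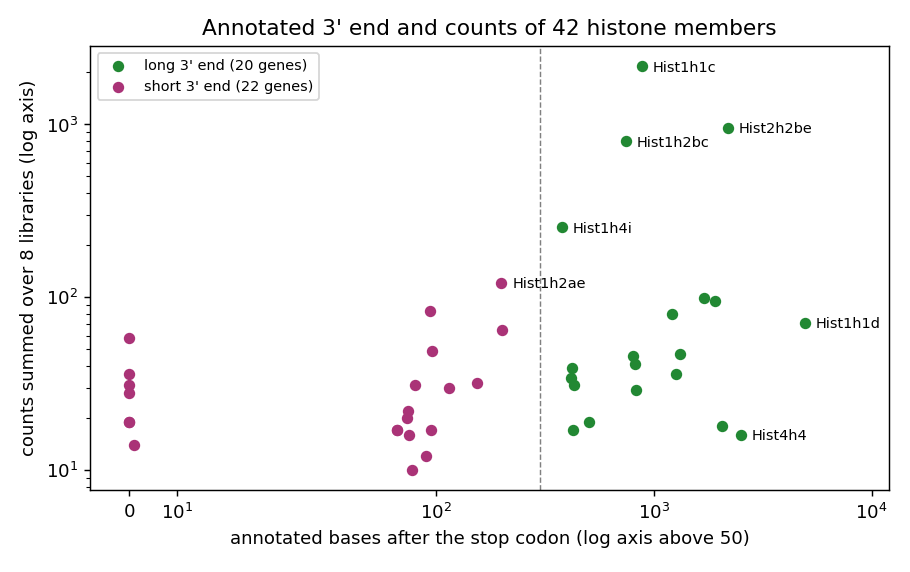
Each point is 1 of the 42 genes with at least 10 counts, placed by the annotated bases after its stop codon (x, log axis above 50) and its counts summed over 8 libraries (y, log axis). The dashed line marks 300 bases; the 4 genes with the most counts lie to its right, and Hist1h1d, with 4931 annotated bases, had only 71 counts.

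Hist1h1c, whose product is among the most abundant linker histones of somatic cells, was higher in mLJZD tumours and lower in cultures with mLJZD serum. Its level was 16.8 and 18.8 CPM in the 2 saline tumours, and 32.1 and 30.6 CPM in the 2 mLJZD tumours. The groups did not overlap, and edgeR gave a log2 fold change of 0.85 (SE 0.10, adjusted p = 3.09e-06). Without replicate 1 of the mLJZD tumours the adjusted p was 0.0516 in edgeR, with a log2 fold change of 0.80. In cultures the gene stood at 5.98 and 5.05 CPM with control serum, and at 2.64 and 2.42 CPM with mLJZD serum. Again the groups did not overlap, and the log2 fold change was -1.19 (SE 0.25, edgeR adjusted p = 0.000993). When the dependence of counts on transcript length and GC content was removed from each library, it shrank to -0.59 and was no longer called (edgeR adjusted p = 0.0727).

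The other replication-dependent linker histone genes were far lower. Hist1h1e (histone H1.4) had 0.356 and 0.253 CPM in saline tumours, and 0.600 and 0.783 CPM in mLJZD tumours. Its cultures overlapped, with 0.299 and 0.676 CPM under control serum and 0.538 and 0.375 CPM under mLJZD serum. Hist1h1d (histone H1.3) had 0.356 and 0.303 CPM in saline tumours and 0.600 and 0.723 CPM in mLJZD tumours. In cultures it had 0.470 and 0.496 CPM with control serum and 0.440 and 0.136 CPM with mLJZD serum. For both genes the mLJZD tumours lay above the saline tumours. Neither passed the test: the log2 fold changes in tumours were 1.19 (SE 0.56, edgeR adjusted p = 0.12) for Hist1h1e and 1.02 (SE 0.55, edgeR adjusted p = 0.179) for Hist1h1d. Hist1h1b, with 19 counts, was too low to test. Hist1h1a had 1 count, and the testis-specific Hist1h1t had none. Summed over the 6 H1 genes, the level was 17.8 and 19.4 CPM in saline tumours, 33.5 and 32.5 CPM in mLJZD tumours, 6.87 and 6.22 CPM with control serum, and 3.72 and 2.93 CPM with mLJZD serum. Hist1h1c sets this sum.

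Hist1h2bc, an H2B gene, was also higher in mLJZD tumours. It stood at 6.09 and 7.48 CPM in saline tumours and at 12.4 and 10.6 CPM in mLJZD tumours. The log2 fold change was 0.79 (SE 0.15, edgeR adjusted p = 0.000741). This call was lost without replicate 1 (edgeR adjusted p = 0.127) or replicate 2 (0.0565) of the mLJZD tumours. In cultures the gene had 2.01 and 0.946 CPM with control serum and 1.13 and 1.26 CPM with mLJZD serum. Those groups overlapped, and the log2 fold change of -0.37 (SE 0.46) was not called (edgeR adjusted p = 0.526).

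Hist2h2be, the other abundant H2B gene with no 50-base window shared with another gene, was called in neither treatment comparison. Saline tumours had 12.0 and 10.0 CPM and mLJZD tumours 9.50 and 9.34 CPM. Cultures had 1.96 and 1.85 CPM with control serum, and 1.96 and 2.21 CPM with mLJZD serum. The log2 fold change was -0.19 in tumours (SE 0.14, edgeR adjusted p = 0.327) and 0.08 in cultures (SE 0.34, edgeR adjusted p = 0.871). Of the 3 most counted members, all with long ends, 2 were thus called higher in tumours and Hist2h2be had a negative estimate. The difference between these genes was not tested.

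Of the lower H2B genes, Hist1h2be had 0.508 and 0.859 CPM in saline tumours, and 1.09 and 1.21 CPM in mLJZD tumours. Its cultures had 0.470 and 0.451 CPM with control serum and 0.0489 and 0.204 CPM with mLJZD serum. In both materials the groups stood apart, but the log2 fold changes of 0.77 in tumours (SE 0.44, edgeR adjusted p = 0.202) and -1.76 in cultures (SE 0.80, edgeR adjusted p = 0.0753) were not called. The short copy Hist1h2bg had 0.457 and 0.556 CPM in saline tumours, and its mLJZD tumours disagreed, with 1.15 and 0.181 CPM. It had 0.342 and 0.360 CPM with control serum, and 0.0489 and 0.136 CPM with mLJZD serum. Its tumour estimate was 0.46 (SE 0.63, edgeR adjusted p = 0.638), and the cultures were too low to test. The 18 H2B genes summed to 20.2 and 19.6 CPM in saline tumours, 25.5 and 22.5 CPM in mLJZD tumours, 5.76 and 4.46 CPM with control serum, and 3.28 and 3.95 CPM with mLJZD serum.

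Hist1h2ae, which encodes H2A, had the largest fall of the members called in cultures. It had 1.54 and 1.44 CPM with control serum and 0.196 and 0.170 CPM with mLJZD serum. The log2 fold change was -3.06 (SE 0.58, edgeR adjusted p = 0.000405), and at -2.20 it stayed called once length and GC were corrected for (edgeR adjusted p = 0.00887). In tumours it had 0.559 and 0.303 CPM with saline and 0.873 and 0.663 CPM with mLJZD. Those groups did not overlap, yet the log2 fold change of 0.86 (SE 0.52) was not called (edgeR adjusted p = 0.235). Hist3h2a, an H2A gene with a long end, had 0.609 and 0.960 CPM in saline tumours and 0.928 and 1.33 CPM in mLJZD tumours, an overlap of the groups. In cultures it had 0.213 and 0.496 CPM with control serum and 0.294 and 0.238 CPM with mLJZD serum. Its tumour estimate was 0.54 (SE 0.43, edgeR adjusted p = 0.386). Over the 18 H2A genes the sums were 1.78 and 2.07 CPM in saline tumours, 2.13 and 3.01 CPM in mLJZD tumours, 2.82 and 3.38 CPM with control serum, and 0.930 and 1.29 CPM with mLJZD serum.

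Among the H4 genes, Hist1h4i had 1.42 and 1.11 CPM in saline tumours, and 2.13 and 1.45 CPM in mLJZD tumours. With control serum it had 2.48 and 1.49 CPM, and with mLJZD serum 1.27 and 0.817 CPM. The groups did not overlap in either material, but neither difference was called, with log2 fold changes of 0.54 (SE 0.35, edgeR adjusted p = 0.281) and -1.01 (SE 0.44, edgeR adjusted p = 0.0639). Hist1h4h, a short copy, overlapped in both materials, with 0.711 and 0.253 CPM against 0.382 and 0.422 CPM in tumours, and 0.896 and 0.450 CPM against 0.636 and 0.204 CPM in cultures. Hist1h4k, for which no bases after the stop codon are annotated, stood between 0.238 and 0.538 CPM in all 8 libraries. In cultures the log2 fold changes were -0.82 (SE 0.67, edgeR adjusted p = 0.324) for Hist1h4h and -0.14 (SE 0.69, edgeR adjusted p = 0.882) for Hist1h4k. Hist2h4, a long copy, had 0.457 and 0.253 CPM in saline tumours and 0.709 and 0.663 CPM in mLJZD tumours (log2 fold change 0.97, SE 0.55, edgeR adjusted p = 0.2). Its cultures were low, with 0.0427 and 0.270 CPM under control serum, and 0 and 0.0681 CPM under mLJZD serum. The 13 H4 genes summed to 3.50 and 3.39 CPM in saline tumours, 4.64 and 4.22 CPM in mLJZD tumours, 5.17 and 4.01 CPM with control serum, and 3.43 and 2.69 CPM with mLJZD serum.

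No H3 gene passed the filter on low counts in the fits of tumours alone or cultures alone, and 9 of the 12 had at least 10 counts. The most counted were Hist1h3g with 49 counts and Hist1h3d with 46. Hist1h3d was tested over 8 libraries for a difference between the tumour and the culture effect, which was 3.42 (SE 1.43, edgeR adjusted p = 0.0629) and not called. With the replicate number as a block it was 3.63 and called (edgeR adjusted p = 0.0342). Together the 12 genes had 1.07 and 0.758 CPM in saline tumours and 2.67 and 2.47 CPM in mLJZD tumours, a ratio of the means of 2.82. With control serum they had 2.86 and 2.25 CPM, and with mLJZD serum 0.636 and 1.36 CPM, a ratio of 0.391. The groups did not overlap in either material. Several of these genes differ little in sequence. How reads shared among them were counted is not given, which can affect the sum as well as its parts.

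**Figure D2:**
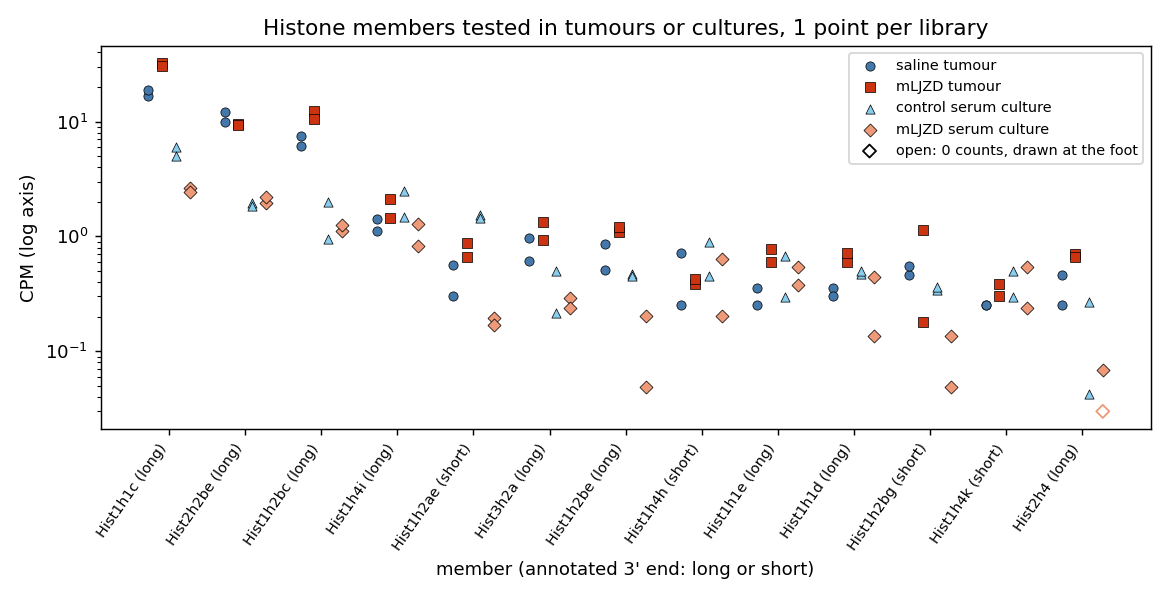
CPM of the 13 genes tested in tumours or in cultures, on a log axis, with 1 point per library and the annotated class of the 3′ end in brackets. Hist1h1c, Hist2h2be and Hist1h2bc lie above the others in tumours, while the control cultures of Hist1h4i and Hist1h2ae reach up to the level of Hist1h2bc and Hist2h2be.

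The other 29 of the 42 genes were not tested in tumours or cultures. They had 10 to 49 counts each, 746 in all, and 24 of them stood at 0 in at least 1 library. Their highest value in any library was 0.683 CPM, seen for Hist1h3f in 1 control culture whose pair had 0.0451 CPM. A count of 0 allows up to 3 counts, which is 0.102 to 0.181 CPM depending on the library, for counting error alone. Differences among these genes were mostly not detectable at this depth. The 25 genes below the minimum include 23 short and 2 long copies.

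Of the 11 members tested in tumours, 9 long and 2 short, 2 were called higher and 0 lower. Over all 15417 genes tested in tumours by edgeR, 15.4% were called higher and 16.0% lower, 31.4% in either direction, so the count of members is close to what the table as a whole gives. At an unadjusted edgeR p under 0.05, 3 members were higher and 0 lower, where 6235 of the 15417 genes passed in either direction. DESeq2 also called 2 members higher and 0 lower, beside 1453 higher and 1428 lower of 15902 genes. The median log2 fold change was 0.79 over the 11 members and 0.00 over all genes. A gene passed the filter more easily when it was high in a group, so this median does not describe all members. Without the filter, but still with at least 10 counts over the tumours, 27 members were tested, again with 2 higher and 0 lower. Of all 18627 genes so tested, 2320 were higher and 2422 lower. The median of the 27 members was 0.61, and the minimum count still favours genes high in a group. Of the 42 members, 18 had both mLJZD tumours above both saline tumours and 2 had them below, against 25.4% and 32.0% of the 20590 genes with as many counts. The split was 11 and 2 of 20 among long copies, and 7 and 0 of 22 among short copies.

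In cultures, 10 members were tested, 7 long and 3 short, and 0 were called higher and 2 lower, Hist1h1c and Hist1h2ae. The background was 28.8% higher and 26.6% lower of 13299 genes in edgeR, 55.4% in all. At an unadjusted edgeR p under 0.05, 0 members were higher and 4 lower, where 7916 of the 13299 genes passed in either direction. DESeq2 called 0 members higher and 2 lower, beside 3353 higher and 2922 lower of 14490 genes. In edgeR the median log2 fold change of the 10 members was -0.85, and that of all genes -0.01. Short transcripts as a whole were lower in the cultures with mLJZD serum: of 454 tested protein-coding genes whose longest transcript is under 1000 bases, 345 were called lower and 9 higher, with a median of -0.76. With the length and GC trend removed from each library, the median of these short genes was 0.01, that of the 10 members was -0.02, and only Hist1h2ae remained called. Of the 42 members, 15 had both mLJZD cultures below both controls and 1 had them above, against 26.4% and 33.0% of 20590 genes. With only a minimum of 10 counts over the cultures, 33 members were tested, and 0 were higher and 3 lower in edgeR, with Hist1h2bq added. Of all 16299 genes so tested, 3879 were higher and 3509 lower. The median of the 33 members was -0.98.

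**Figure D3:**
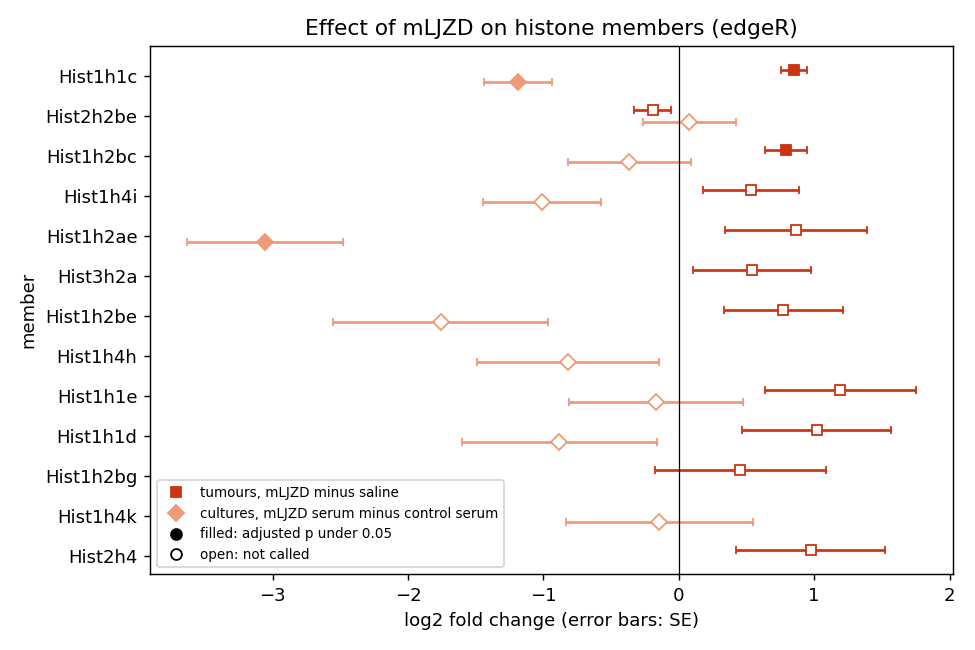
Log2 fold change with its SE for each gene tested in tumours (squares) or cultures (diamonds), from edgeR on 2 libraries per group; filled symbols have an adjusted p under 0.05. Estimates in tumours lie above 0 except for Hist2h2be, those in cultures below 0 except for Hist2h2be, and only Hist1h1c is called in both, in opposite directions.

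An interaction term fitted to the 8 libraries tested whether mLJZD acted differently on tumours and cultures. Of 13 members tested, 5 had a larger effect in tumours and 0 a smaller one. Over 16090 genes in edgeR, 23.8% were called with a larger and 20.5% with a smaller effect in tumours, 44.4% in all. The member count at an unadjusted edgeR p under 0.05 was 8 larger and 0 smaller, where 8101 of the 16090 genes passed in either direction. DESeq2 called 3 members larger and 0 smaller, beside 3031 larger and 3090 smaller of 15533 genes. The difference of log2 effects was 2.13 for Hist1h1c (SE 0.22, edgeR adjusted p = 5.74e-07) and 4.01 for Hist1h2ae (SE 0.77, edgeR adjusted p = 0.00038). With the length and GC trend removed these were 1.57 and 3.15, still called. Hist1h2bc (1.24, SE 0.41, edgeR adjusted p = 0.0205), Hist1h2be (2.61, SE 0.86, edgeR adjusted p = 0.0202) and Hist1h4i (1.63, SE 0.57, edgeR adjusted p = 0.0267) were less firm. Without the trend, Hist1h2be stayed called and Hist1h2bc (edgeR adjusted p = 0.172) and Hist1h4i (0.298) did not. Hist1h1d, not called before (1.99, SE 0.88, edgeR adjusted p = 0.08), was 2.72 and called without the trend (edgeR adjusted p = 0.0261). In DESeq2 Hist1h2be (adjusted p = 0.0851) and Hist1h4i (0.0975) missed the threshold. The calls of Hist1h2bc, Hist1h2be and Hist1h4i also rested on single libraries. Hist1h2bc fell to 0.57 without replicate 1 of the control cultures (edgeR adjusted p = 0.35), and was not called without replicate 1 of the mLJZD tumours (0.109) or of the saline tumours (0.0671). Hist1h2be lost its call without replicate 1 of the control cultures (edgeR adjusted p = 0.055), of the mLJZD cultures (0.0854) or of the saline tumours (0.102), and without replicate 1 (0.0607) or 2 (0.068) of the mLJZD tumours. Its difference was 3.99 without replicate 2 of the mLJZD cultures. Hist1h4i lost its call without replicate 1 of the control cultures (edgeR adjusted p = 0.131) or of the mLJZD tumours (0.163), and without replicate 2 of the mLJZD cultures (0.0978) or of the saline tumours (0.097). Hist1h1c and Hist1h2ae stayed called without each of the 8 libraries in turn. The median difference was 1.99 over the 13 members, 0.07 over all genes, and 0.89 over 557 short protein-coding genes, of which 344 were called with a larger effect in tumours. This test shares its libraries with both treatment comparisons and is not independent of them.

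Without mLJZD, the long and short copies stood differently in the 2 materials. On the log2 scale, Hist1h1c was higher in saline tumours than in control cultures by 1.52 (SE 0.15, edgeR adjusted p = 3.44e-06), Hist1h2bc by 2.02 (SE 0.31, edgeR adjusted p = 0.00011) and Hist2h2be by 2.36 (SE 0.20, edgeR adjusted p = 9.48e-07). Hist1h2ae was lower in tumours, at -1.94 (SE 0.43, edgeR adjusted p = 0.00161), and this call was lost without replicate 2 of the saline tumours (0.08). Of 8 members tested, 3 were thus higher and 1 lower, where 44.9% and 35.7% of 15332 genes were, 80.6% in all. Of the 42 members, 8 had both saline tumours above both control cultures and 10 had them below, against 51.7% and 29.3% of 20590 genes. Among long copies the split was 7 and 3 of 20, and among short copies 1 and 7 of 22. Without the filter, but with at least 10 counts over these libraries, 33 members were tested and 3 were higher and 6 lower. Of all 18389 genes so tested, 7531 were higher and 5627 lower. The 5 added, Hist1h3c, Hist1h3f, Hist1h3h, Hist1h3i and Hist1h4j, are H3 and H4 genes with 30 to 36 counts. The median was then 0.40 over 17 long and -1.60 over 16 short copies. Short transcripts as a whole were also lower in saline tumours. Of 533 tested protein-coding genes under 1000 bases, 309 were called lower and 140 higher in edgeR, with a median of -0.61. With the length and GC trend removed their median was -0.11. Tumours differ from cultures in host cells, handling and growth, which cannot be told apart here, and these control libraries are the same ones against which the mLJZD effects were taken.

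Summed over the class, the 22 long copies had 40.2 and 42.2 CPM in saline tumours and 62.5 and 59.5 CPM in mLJZD tumours. In cultures they had 16.0 and 14.0 CPM with control serum and 9.39 and 8.99 CPM with mLJZD serum. The 45 short copies had 4.06 and 2.93 CPM in saline tumours and 5.95 and 5.24 CPM in mLJZD tumours. With control serum the short copies had 7.47 and 6.31 CPM and with mLJZD serum 2.59 and 3.24 CPM. In both classes mLJZD tumours lay above saline tumours and mLJZD cultures below control cultures, without overlap. The log2 ratio of summed CPM in tumours was 0.57 ± 0.07 for long and 0.68 ± 0.36 for short copies (SD of the ratio from the 2 libraries of each group). In cultures it was -0.71 ± 0.14 for long and -1.24 ± 0.28 for short copies. The tumour ratios of the classes differed by less than their spread. These sums are given as a description, with no test, and are not corrected for transcript length or GC. In cultures, 345 of 454 short protein-coding genes were called lower with mLJZD serum in edgeR, with a median of -0.76. Whether the class sums fell beyond that trend was not tested. An exact permutation test of 2 libraries against 2 could not reach 0.05.

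The difference between the materials lay in the share of each class. Long copies made up 90.8% and 93.5% of all member counts in saline tumours and 91.3% and 91.9% in mLJZD tumours. In control cultures their share was 68.2% and 69.0%, and in mLJZD cultures 78.4% and 73.5%. Every tumour library had a larger share than every culture library. Without Hist1h1c, Hist1h2bc and Hist2h2be, the remaining 19 long copies summed to 5.33 and 5.91 CPM in saline tumours and 6.06 and 6.17 CPM in control cultures, a ratio of the means of 0.919. The 3 genes by themselves were 4.00 times as high in saline tumours as in control cultures, and the short copies 0.508 times as high. So the higher long share in tumours came with those 3 genes and with lower short copies, while the other long copies were at nearly the same level. These sums are not corrected for transcript length or GC, and the part of that trend in the share was not tested.

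**Figure D4:**
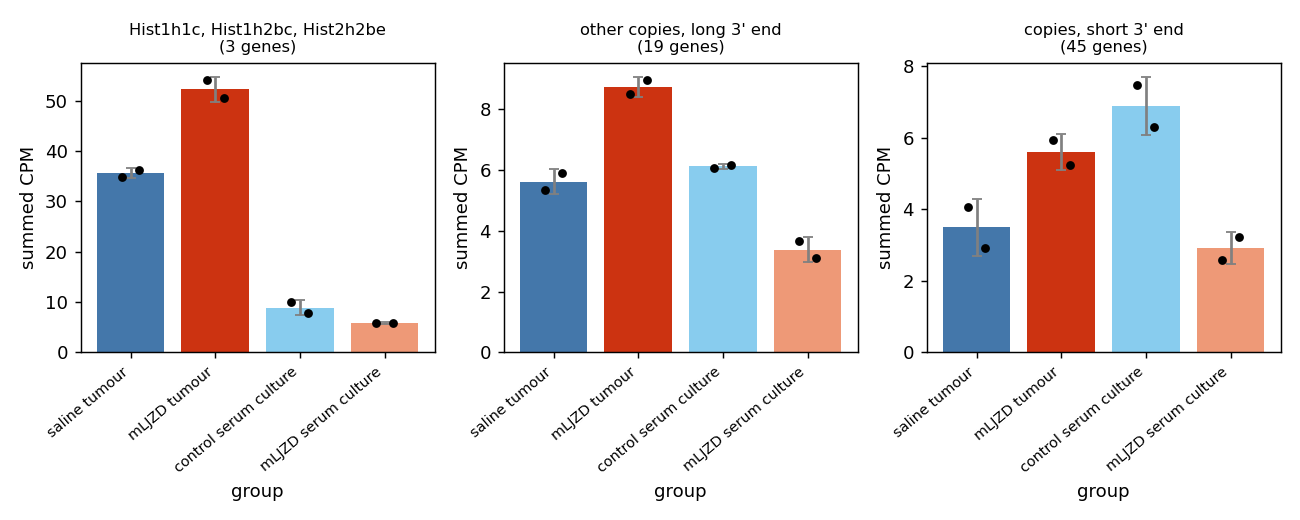
Summed CPM of Hist1h1c, Hist1h2bc and Hist2h2be (left), of the other 19 long copies (middle) and of the 45 short copies (right), each with its own axis from 0. Bars are means of 2 libraries, grey error bars the SD, and black points the libraries; the left set is highest in mLJZD tumours, and the short copies are highest in control cultures.

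Promoters were read from RefSeq (build GRCm38.p6), where 62 of the 67 genes found a match by symbol. Hist1h2bc and Hist2h2be were not among them. Hist1h2ao and Hist1h2ap, both short H2A copies, matched the same promoter (H2ac23). It is counted for each of them in the numbers for H2A, for short copies and for all members. Each window covered 250 bases before and 50 after the start, and letters were searched on both strands. The octamer ATTTGCAT, the letters bound by the factor Oct-1, was in 7 of 18 H2A and 6 of 16 H2B promoters, in no promoter of another histone family, and in 1.74% of 32851 promoters. CCAAT was in 53 of the 62 (85.5%), in every H1, H2A, H2B and H3 promoter but only 3 of 12 H4 promoters, against 37.4% of all. TATAAA was in 35 (56.5%) against 13.6%. The H1 box AAACACA, known from linker histone promoters, was in 5 of 6 H1 promoters and in 7.18% of all. By class, the octamer was in 2 of 18 long and 11 of 44 short copies and TATAAA in 7 of 18 and 28 of 44. A match describes these letters and does not show binding.

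The 250 bases before the start are printed for the 2 members called in cultures, 5′ to 3′ on the gene's strand and with the matches in capitals. For Hist1h1c (chr13:23738557-23738806, plus strand) the capitals mark AAACACA, which begins 112 bases before the start, and CCAAT, which begins 54 bases before it. For Hist1h2ae (chr13:23571221-23571470, minus strand) they mark, from left to right, TATAAA read on the other strand, the octamer on the other strand (128 bases before the start), CCAAT on the other strand and CCAAT.
Hist1h1c: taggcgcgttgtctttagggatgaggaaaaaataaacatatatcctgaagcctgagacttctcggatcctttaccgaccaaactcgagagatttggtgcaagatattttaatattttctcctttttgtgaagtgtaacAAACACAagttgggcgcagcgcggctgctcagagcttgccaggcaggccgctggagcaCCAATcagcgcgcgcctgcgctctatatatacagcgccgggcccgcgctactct
Hist1h2ae: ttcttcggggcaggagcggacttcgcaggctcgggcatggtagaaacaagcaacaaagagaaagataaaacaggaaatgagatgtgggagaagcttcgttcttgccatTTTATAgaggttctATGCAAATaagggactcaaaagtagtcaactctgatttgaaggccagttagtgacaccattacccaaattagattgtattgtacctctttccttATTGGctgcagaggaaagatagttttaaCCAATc
The matches shared by both are the CCAAT letters, which most members hold. No H1 box lies in the Hist1h2ae window and no octamer in that of Hist1h1c.

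Genes that make, process or package histones were taken from fixed lists. Of 22 tested genes for histone RNA processing, 1 was higher and 5 lower in tumours (median log2 fold change -0.06), beside 15.4% and 16.0% of all genes tested. In cultures 7 were higher and 9 lower (median -0.02), beside 28.8% and 26.6% of all genes. Slbp, whose protein binds the stem-loop, fell from 124 to 96.9 CPM between saline and mLJZD tumours (means of 2 libraries, log2 fold change -0.32, SE 0.05, edgeR adjusted p = 0.000178). In cultures it went from 92.7 to 82.1 CPM (-0.23, SE 0.08, edgeR adjusted p = 0.0282), a call lost with the length and GC trend removed (0.0518). Npat, which activates histone gene transcription in S phase, was not called in tumours (-0.17, edgeR adjusted p = 0.132) and rose in cultures by 0.86 (SE 0.10, edgeR adjusted p = 4.19e-06), or 0.25 with the trend removed. Casp8ap2, a partner of Npat at histone loci, rose in cultures by 1.23 (SE 0.09, edgeR adjusted p = 1.16e-07), or 0.53 with the trend removed. It was not called in tumours (0.14, edgeR adjusted p = 0.182). Lsm10, part of the U7 particle, fell by 1.10 in cultures (edgeR adjusted p = 7.87e-05), a call lost with the trend removed (0.167). In tumours, Cpsf2, a subunit of the 3′ end cleavage complex, fell by 0.34 (edgeR adjusted p = 9.66e-05) and Ncbp1, the large cap-binding subunit, rose by 0.45 (edgeR adjusted p = 1.64e-06).

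Of 28 tested genes for histone chaperones and S phase, 20 were lower and 1 higher in tumours, with a median of -0.30, beside 16.0% lower and 15.4% higher of all genes. The 4 with the largest change were subunits of the replicative helicase. Mcm6 fell from 281 to 170 CPM (log2 fold change -0.69, SE 0.05, edgeR adjusted p = 1.75e-08). Mcm3 fell by 0.68, Mcm2 by 0.56 and Mcm4 by 0.50 on the log2 scale, with edgeR adjusted p of 3.05e-08, 5.02e-07 and 1.55e-06. In cultures 4 of the list were higher and 8 lower, with a median of -0.03, beside 28.8% and 26.6% of all genes. Mcm4 was 0.38 higher there (edgeR adjusted p = 0.000352), whereas Tk1, a thymidine kinase of S phase, fell by 0.65 (edgeR adjusted p = 4.16e-06), and Asf1a, a histone H3 and H4 chaperone, by 0.64 (edgeR adjusted p = 0.000169). Thus in tumours Hist1h1c and Hist1h2bc were higher while 20 of these 28 genes were lower. Whether the 2 patterns are related was not tested.

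Replacement histones are made outside the replication programme from polyadenylated mRNA, except that H2afx mRNA comes in both the polyadenylated and the stem-loop form. Of the 11 tested in tumours, 3 were higher and 6 lower (median -0.17), beside 15.4% and 16.0% of all genes. In cultures 0 of 10 were higher and 8 lower in edgeR, beside 28.8% and 26.6% of all genes, with a median of -0.63. At an unadjusted edgeR p under 0.05 there were 9 of the 10, beside 7916 of 13299 genes. With the length and GC trend removed, 5 stayed lower and the median was -0.35. H1fx, a linker histone, was 1.75 higher in mLJZD tumours (SE 0.32, edgeR adjusted p = 0.000429) and 1.63 lower in mLJZD cultures (log2 fold change -1.63, SE 0.31, edgeR adjusted p = 0.000389), the same directions as Hist1h1c, and its culture call was lost with the trend removed (0.15). H2afx, the H2A form phosphorylated at DNA breaks, fell by 0.29 in tumours (edgeR adjusted p = 0.000656) and by 0.92 in cultures (edgeR adjusted p = 2.96e-06), the second of which was -0.05 with the trend removed. Cenpa, the H3 form of centromeres, fell by 0.64 in cultures (edgeR adjusted p = 4.11e-05).

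A list of 15 other RNAs without a poly(A) tail, such as those of RNase P, RNase MRP and the U7 particle, matched 13 identifiers. None passed the filter on low counts, and their sum was 0 to 0.382 CPM per library. The level shows only that they are scarce in the counts, as most short histone copies are. How abundant these RNAs are in the cells was not measured. Length of the RNA and selection in the library cannot be told apart here, since most of the listed RNAs are also short.

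Library totals were 16594912 to 29363861 counts. Markers of other cell types moved with mLJZD in tumours. The summed level of 10 skeletal muscle genes was 2558 and 2577 CPM in saline tumours and 474 CPM in both mLJZD tumours. Summed over 8 genes of B and plasma cells it was 27.2 to 28.1 CPM with saline and 328 to 363 CPM with mLJZD, and for 10 neutrophil genes 18.5 to 18.7 CPM against 34.5 to 37.0 CPM. For 6 erythroid genes it was 18.2 to 22.2 CPM against 43.8 to 47.0 CPM. For 6 T cell genes it was 57.4 to 60.4 CPM against 46.3 to 51.8 CPM, and for 6 macrophage genes 1229 to 1239 CPM against 1027 to 1073 CPM. In cultures each of these sums was at most 10.6 CPM, and of 8 epithelial genes Epcam was at 0 in all 4 cultures. The 8 epithelial genes summed to 294 to 299 CPM in saline tumours, 183 CPM in mLJZD tumours, 174 to 187 CPM with control serum and 238 to 240 CPM with mLJZD serum, with Cdx2 at 0 in all tumours. The part of these cells in the tumour values of Hist1h1c and Hist1h2bc was not tested. Hist1h1c was lower in mLJZD cultures, a call lost with the length and GC trend removed. Whether this bears on the tumour values was not tested.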

How the data were processed

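RNA was extracted with a column kit and made into libraries with the VAHTS Universal V10 kit, per the labels' protocols. The authors deposited raw counts per gene for 8 libraries. Per the submitters' processing notes, reads on build GRCm39 went through HISAT2 2.2.1 and featureCounts 2.0.3, besides Trim Galore, FastQC 0.12.1 and SAMtools 1.14. Not given in the sources used here: annotation release, strand setting, and handling of reads with several matches. Symbols and transcript ends came from GENCODE M21 (GRCm38), which named 52029 of 56953 identifiers.

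The test was edgeR 4.0.16 under R 4.3.3 on these counts (quasi-likelihood F test, two-sided, TMM, filterByExpr), with Benjamini-Hochberg adjustment over all genes tested and a call threshold of 0.05. Fits of tumours, cultures and controls used 4 libraries each, the interaction with 8. The scripts were tested on simulated data. CPM are counts scaled to the library total, n = 2 per group. Standard errors (SE) were derived from the fold change and its F. Alternatives were DESeq2 1.42.0, other scalings, no filter, a replicate block, removal of a length and GC spline trend, and leaving out each library. Fits without the filter still required at least 10 counts over the libraries compared.

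Named are the members passing the filter in tumours or cultures, and up to 4 called genes per list with the largest change and at least 1 CPM, besides Slbp, Npat and Casp8ap2. Other genes named, such as those added without the filter, were chosen after their values were seen. Members and lists were chosen with earlier results of these data known.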

Additional observations from a re-analysis of the deposited data

Results flagged for a closer look

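For 5 genes the effect of mLJZD in tumours differed from that in cultures by the test of the difference itself over 8 libraries in edgeR. The difference of log2 effects, tumours minus cultures, was 2.13 for Hist1h1c, 4.01 for Hist1h2ae, 1.24 for Hist1h2bc, 2.61 for Hist1h2be and 1.63 for Hist1h4i. Over all 16090 genes tested, 23.8% were called with a larger and 20.5% with a smaller effect in tumours. In each of the 5 the mLJZD tumours lay above the saline tumours in both libraries. In cultures the same held downwards for all but Hist1h2bc, whose culture groups overlap. Of 20590 genes, 25.4% stood apart upwards in tumours and 26.4% downwards in cultures. The 5 genes were picked by the difference over these same libraries, so their directions are no separate support. With the length and GC trend removed, Hist1h2bc and Hist1h4i were not called. The calls of Hist1h2bc, Hist1h2be and Hist1h4i were lost when single libraries were left out, those of Hist1h1c and Hist1h2ae in none of the 8 such fits.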

How the results depend on the processing

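With replicate numbers as a block, edgeR called 2 members higher and 0 lower in tumours, and 0 and 2 in cultures. It called 6 and 0 for the difference (Hist1h3d added), and 3 and 1 between controls. Over all genes these fits called 2178 higher and 2283 lower of 15417 in tumours, and 3796 and 3547 of 13299 in cultures. For the difference they called 3787 and 3237 of 16090, and between controls 6750 and 5375 of 15332. Whether equal numbers mark paired libraries is not given in the labels. For each group, log2 CPM of the second replicate was subtracted from that of the first. Between the 2 groups compared, these differences correlated at -0.08 in tumours, 0.02 in cultures and -0.01 between controls, over 16090 genes. With a single difference per group, these values do not settle whether the libraries are paired.

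Members called lower in cultures, 2 as reported, were 4 in 1 fit over 8 libraries and 1 with the length and GC trend removed. Over all genes, 4519 of 16090 and 1826 of 13299 were lower in these fits. The difference, 5 members larger in tumours, gave 3 in DESeq2 and 8 without the filter, beside 3031 of 15533 and 3129 of 20590 genes. Members lower in saline tumours than in control cultures, 1 as reported, were 2 in DESeq2 and 6 without the filter. All genes gave 4789 of 19374 and 5627 of 18389 there. Leaving out each library gave 0 to 3 members higher in tumours (0 without replicate 1 and 1 without replicate 2 of the mLJZD tumours), 2 to 4 lower in cultures (4 without control replicate 2), 4 to 7 with a larger effect in tumours, and 1 to 4 lower in saline tumours than control cultures (4 without control culture replicate 2, 2 without saline replicate 1). In these fits the lone library is assumed to vary like the others, and the cause was not tested.

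Directions turned only for estimates that were not called. With the length and GC trend removed, culture values became 0.20 for Hist1h1e, 0.13 for Hist1h2bc, 0.33 for Hist1h4h and 1.27 for Hist1h4k, the difference for Hist1h4h -0.47, and its control contrast 0.053. Hist2h2be in cultures was -0.035 under upper-quartile scaling. Leaving out each library, culture values ranged from -0.63 to 0.51 for Hist1h1e, -0.81 to 0.30 for Hist1h2bc, -0.77 to 0.39 for Hist1h4k and -0.008 to 0.162 for Hist2h2be. The range was -1.43 to 1.22 for Hist1h2bg in tumours and -0.021 to 0.745 for Hist1h2be in the control contrast. Of 490 gene values recomputed, 442 kept direction and call, 12 became called, 21 lost the call and 15 turned.

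Over all genes, tumour calls went from 4835 to 2881 in DESeq2, 1087 without replicate 1 and 1974 without replicate 2 of the mLJZD tumours. Culture calls were 3825 higher and 3540 lower, and 3352 and 1826 with the trend removed. The class ratios moved by less than 1 SD in each alternative run of the sums, none of which removed the length and GC trend. In the gene fits its removal moved the culture median from -0.88 to -0.18 over 7 long copies. Over 3 short copies it went from -0.82 to 0.33.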
